A study of Mus musculus with 2 samples.

Results

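Oxidative phosphorylation (OXPHOS) genes, encoded in the nucleus and in mitochondrial DNA, were examined in droplet-based single-cell RNA sequencing (scRNA-seq) of mouse embryonic stem cells (ESCs) and epiblast-like cells taken 48 h into differentiation (48h-EpiLCs). Members were chosen by symbol. They comprised genes of the Nduf, Cox4 to Cox8, Uqcr, Atp5 and Sdh series and the mitochondrial mt-Nd, mt-Co, mt-Cytb and mt-Atp genes, without pseudogenes and assembly factors. There were 97 members among 32286 features, of which 84 were nuclear and 13 mitochondrial. The nuclear members fell into complex I (36 genes), complex II (4), complex III (8), complex IV (19, with Ndufa4) and complex V (17). The mitochondrial members fell into complex I (7 genes), complex III (1), complex IV (3) and complex V (2).

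The ESCs were kept on feeder cells in serum/LIF medium and the 48h-EpiLCs in N2B27 with activin A, bFGF and KSR on Matrigel. The labels give the strain as ICR for both libraries, and their genotype field names wild type although both hold a mixture. In each of the 2 libraries, 1 per stage, equal numbers of wild-type (WT) cells carrying the ROSA mT/mG reporter, which transcribe tdTomato, and of Cnot8 knockout (KO) cells had been pooled. Cnot8 is a catalytic subunit of the Ccr4-Not complex, by which mRNAs lose their poly(A) tails. The KO line came from blastocysts of heterozygous parents whose Cnot8 had been cut in exon 2 by CRISPR/Cas9, so that the lines differ in origin as well as in genotype and these cannot be told apart. Stage and library cannot be told apart either.

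The line of each cell was read from its RNA. Kept were cells with 1000 or more genes and no more than 10% of UMIs (unique molecular identifiers, each counting 1 captured molecule) from mitochondrial genes. A cell was WT-assigned when it had at least 1 tdTomato UMI and 0 UMIs of the Y-linked genes Ddx3y, Eif2s3y, Kdm5d and Uty. It was KO-assigned when it had 0 tdTomato UMIs and at least 2 Y-linked UMIs. The rule gave 435 WT-assigned and 2978 KO-assigned ESCs with 6154790 and 44110356 UMIs in all. It gave 368 WT-assigned and 2977 KO-assigned 48h-EpiLCs with 6219834 and 59291903 UMIs. A further 82 ESCs and 84 48h-EpiLCs with tdTomato also carried Y-linked UMIs and were left out. UMIs were summed per class and scaled to counts per 1000000 UMIs of the class (CPM). On this scale tdTomato stood at 76.04 CPM in WT-assigned ESCs and 63.35 CPM in WT-assigned 48h-EpiLCs. The assignment of a cell to the WT line thus rests on few UMIs. Values of the 4 classes are listed below in a fixed order, WT-assigned ESCs, KO-assigned ESCs, WT-assigned 48h-EpiLCs and KO-assigned 48h-EpiLCs. With 1 library per stage there is no replicate check and no test. The intervals given are 95% intervals that cover counting error only.

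OXPHOS is the process by which mitochondria turn the oxidation of nutrients into ATP. Complexes I and II pass electrons to ubiquinone, complex III passes them on to cytochrome c, and complex IV hands them to oxygen. Complexes I, III and IV pump protons, and complex V, the ATP synthase, uses the proton gradient to make ATP. Complex II is built from nuclear genes alone, whereas the other complexes combine nuclear subunits with subunits encoded in mitochondrial DNA. Naïve pluripotent cells are known to respire more than primed cells, which depend more on glycolysis.

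The libraries held 13184 and 12427 barcodes with 144584246 and 163771168 UMIs, 41 barcode sequences occurred in both, and 11054 and 9400 cells passed the filters. Median depth per cell was 13151, 13368, 15598 and 17628 UMIs in the 4 classes. Cnot8 was measured at 43.1, 72.1, 49.7 and 62.6 CPM, and was thus not lower in KO-assigned cells, but UMIs tag the 3′ end of the transcript, not exon 2, and check nothing about the cut. Summed naïve markers (Zfp42, Klf2, Klf4, Esrrb, Tfcp2l1, Tbx3 and Nr5a2) stood at 993, 1322, 90.5 and 219 CPM, and formative markers (Fgf5, Otx2, Pou3f1 and Dnmt3b) at 309.7, 350.7, 1109 and 954 CPM, which matches the labelled stages. The 8 feeder fibroblast markers summed to 10.6, 37.3, 7.56 and 11.2 CPM, with 1, 0, 3 and 0 of them at 0, and the 8 primitive endoderm markers to 20.0, 40.2, 6.43 and 8.20 CPM, with 0, 0, 3 and 0 at 0. The 8 markers of 2-cell-like cells summed to 9.75, 4.49, 1.93 and 5.52 CPM, with 3, 0, 2 and 0 at 0, and the core pluripotency genes Pou5f1, Sox2, Nanog and Sall4 to 603, 548, 317 and 313 CPM. Of the KO-assigned ESCs, 29 carried at least 4 feeder markers and 70 at least 3 primitive endoderm markers, against 1 and 4 of the WT-assigned ESCs. Without cells of these 3 kinds the medians of the nuclear members were -0.29 and -0.13 between the lines and -0.003 and 0.19 between the stages, against -0.28, -0.13, -0.005 and 0.19 with them.

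Nuclear OXPHOS genes together supplied about the same small part of all RNA molecules in the 2 stages of the WT-assigned cells, and less in the KO-assigned cells. Their share of UMIs was 2.454% (2.442% to 2.466%) in WT-assigned ESCs and 2.17% (2.166% to 2.174%) in KO-assigned ESCs. In 48h-EpiLCs it was 2.461% (2.448% to 2.473%) in WT-assigned and 2.381% (2.377% to 2.384%) in KO-assigned cells. The gap between the lines was thus smaller after differentiation, and the KO-assigned cells were the ones that shifted. The 13 mitochondrial mRNAs supplied 3.92%, 3.85%, 3.04% and 3.24% of UMIs, and here the separation ran between the stages. Both lines were lower in the 48h-EpiLC library.

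The complexes did not share a common pattern. Complex V genes took the largest nuclear share and the largest line gap, with 0.906%, 0.74%, 0.902% and 0.809% of UMIs in the 4 classes. They include Atp5j and Atp5o of chromosome 16, whose other genes were also lower in KO-assigned cells, as given below. In 48h-EpiLCs Atp5j was at 548 and 386 CPM and Atp5o at 712 and 476 CPM in WT-assigned and KO-assigned cells. The gap without these genes was not calculated. Complex I took 0.584%, 0.512%, 0.635% and 0.592%. Both complexes were lower in the KO-assigned class of each library. Nuclear complex IV took 0.686%, 0.653%, 0.646% and 0.694% and complex III 0.244%, 0.234%, 0.235% and 0.247%. For both, the share of the KO-assigned class was lower in ESCs and higher in 48h-EpiLCs. After the centring described below, the log2 line ratio of these sums in 48h-EpiLCs was 0.029 (0.014 to 0.044) and -0.001 (-0.025 to 0.024). Of the 14 complex IV genes that passed the level filter given there, 8 lay below 0 and 6 above. Among the higher ones were Cox7b, at 460 and 809 CPM in WT-assigned and KO-assigned 48h-EpiLCs, and Cox7c, at 1009 and 1225 CPM. Complex II, the succinate dehydrogenase, took 0.033%, 0.0297%, 0.0417% and 0.0379% and was higher in the 48h-EpiLC library in each line. Of the mitochondrial transcripts, those of complex I took 1.02%, 1.23%, 0.695% and 0.886% and those of complex IV 1.83%, 1.4%, 1.44% and 1.14%. These sums ran in opposite directions between the lines, that of complex I being higher and that of complex IV lower in KO-assigned cells. Single mRNAs of complex I did not share a direction, with 3 above 0 and 4 below 0 between the lines in ESCs.

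**Figure D1:**
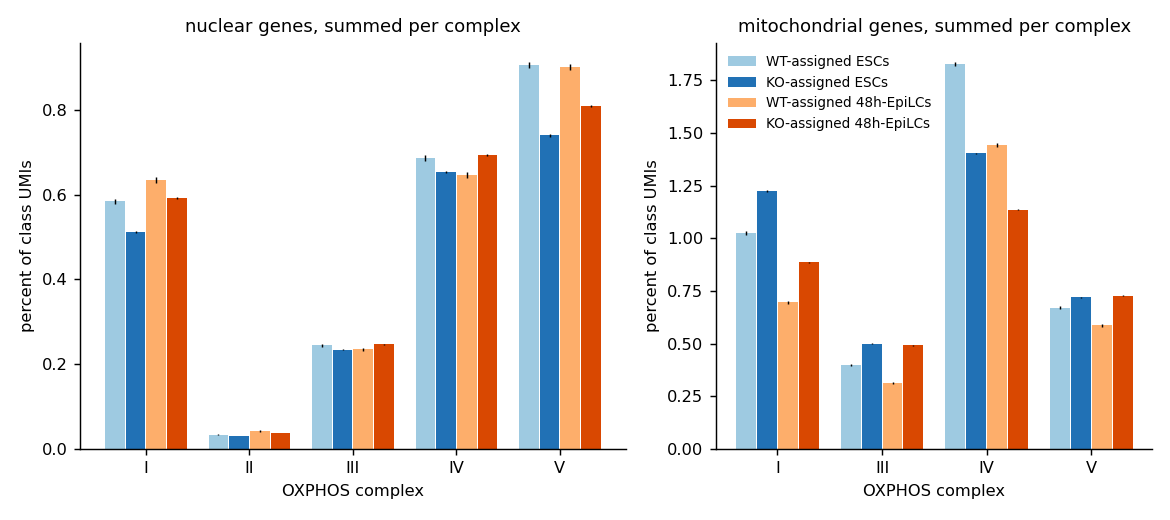
Percent of all UMIs of a class (y axis, from 0) taken by the nuclear (left) and mitochondrial (right) genes of each OXPHOS complex (x axis). Bars are the 4 classes of line and stage, and error bars are 95% binomial intervals. Nuclear complex V stands highest among the nuclear bars and is lower in the KO-assigned class of both stages, and the mitochondrial complex I and IV bars move in opposite directions between the lines.

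For single genes the measure was the log2 ratio of CPM + 1 between 2 classes, centred on the median of all genes with a mean of at least 5 CPM in both. The median of all genes before centring was 0.125 and 0.074 for KO-assigned over WT-assigned ESCs and 48h-EpiLCs, and 0.028 and -0.021 for 48h-EpiLC over ESC in WT-assigned and KO-assigned cells. A gene was counted as past the fold when its centred ratio reached 0.32 on this log2 scale. Genes that passed this level filter are called tested. Of the 84 nuclear members 79 passed it in each comparison. The 5 that did not, Cox4i2, Cox6a2, Cox7b2, Cox8b and Cox8c, are isoforms known from other tissues such as lung, muscle or testis, and they are given with the isoforms.

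In ESCs, most nuclear OXPHOS genes were lower in KO-assigned than in WT-assigned cells. Of the 79 tested members 71 lay below 0, with a median of -0.28 and a range from -1.22 to 0.77. There were 35 members past the fold downward, where 19.5% of all 9277 genes tested were, and 2 past it upward, where 19.8% were. In complex V all 17 members lay below 0, 10 of them past the fold, with a median of -0.40. Complex I had 19 of 36 past the fold downward and none upward, with a median of -0.33. Complexes II, III and IV had 1 of 4, 1 of 8 and 4 of 14 tested members past the fold downward. Genes of at least 50 CPM, among which the members mostly lie, were themselves shifted to a median of -0.057 on this scale. The size depends on the centring, since without it the median of the members was -0.16 and 20 were past the fold downward.

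In 48h-EpiLCs the shift between the lines had the same sign and was smaller. Below 0 were 65 of 79 members, with a median of -0.13. The 14 members past the fold downward were read against 15.6% of all 9385 genes tested, and the 2 past it upward against 16.1%. The share of members past the fold downward was thus near that of all genes, while the share below 0 was not. Complex V again had all 17 members below 0 (-0.18 at the median, 3 past the fold), and complex I had 31 of 36 below 0 (-0.17, 7 past the fold). Complex III (-0.031) and complex IV (-0.041) had medians near 0, and none of the 8 complex III members passed the fold. Without centring the median of the members was -0.059, with 5 past the fold downward.

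Taking both libraries, 64 of 79 nuclear members (81%) lay below 0 in each, where 36.5% of 8827 genes did. The members past the fold downward in both were 13 (16.5%, against 9.13% of all genes), namely Cox5b, Atp5e, Ndufb6, Ndufa4, Ndufa3, Cox6b2, Ndufc2, Ndufs6, Ndufs4, Ndufb4, Atp5j, Atp5o and Ndufa7. Upward in both were Cox7a1 and Cox7b (2.53%, against 8.46%). The line ratio in 48h-EpiLCs minus that in ESCs was above 0 for 68 of 78 members of at least 20 CPM (87.2%, against 52.7% of the 8827 genes tested in both), with a median of 0.18 against 0.018. The largest differences were those of Cox6b2 (0.71), of Uqcr10, a small subunit of complex III (0.44), and of Atp5j2, the f subunit of ATP synthase (0.37). This difference between stages was not tested.

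Cox6b2, the testis-enriched isoform of cytochrome c oxidase subunit VIb (chr7:4751792-4753094, minus strand), had the lowest line ratio of the members in ESCs. It was measured at 56.9, 26.03, 56.8 and 41.7 CPM. The KO-assigned ESCs were lowest, the KO-assigned 48h-EpiLCs came next, and the 2 WT-assigned classes were alike. The centred ratio between the lines was -1.22 (-1.43 to -1.08) in ESCs and -0.51 (-0.68 to -0.35) in 48h-EpiLCs. Its ubiquitous partner Cox6b1, which fills the same place in the enzyme, was at 335, 321, 277 and 299.9 CPM, with line ratios of -0.19 (-0.26 to -0.12) and 0.042 (-0.029 to 0.12). Cox6b2 therefore made up 14.5%, 7.5%, 17.0% and 12.2% of the UMIs of the pair.

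Atp5j, which encodes coupling factor 6 of the ATP synthase peripheral stalk (chr16:84827866-84835625, minus strand), was at 730.2, 432, 548 and 386 CPM. Its line ratio was -0.88 (-0.93 to -0.83) in ESCs and -0.58 (-0.63 to -0.53) in 48h-EpiLCs. Atp5o, the oligomycin sensitivity-conferring protein of the same stalk (chr16:91925214-91931687, minus strand), was at 545, 353.7, 712 and 476 CPM. Its line ratios were -0.75 (-0.80 to -0.70) and -0.66 (-0.70 to -0.61). Both genes were lower in the KO-assigned class of each library, and both lie on chromosome 16. The third member there, Ndufb4, an accessory subunit of complex I (chr16:37647170-37654453, minus strand), was at 173, 115, 169 and 130.4 CPM, with line ratios of -0.71 (-0.81 to -0.62) and -0.44 (-0.54 to -0.35).

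**Figure D2:**
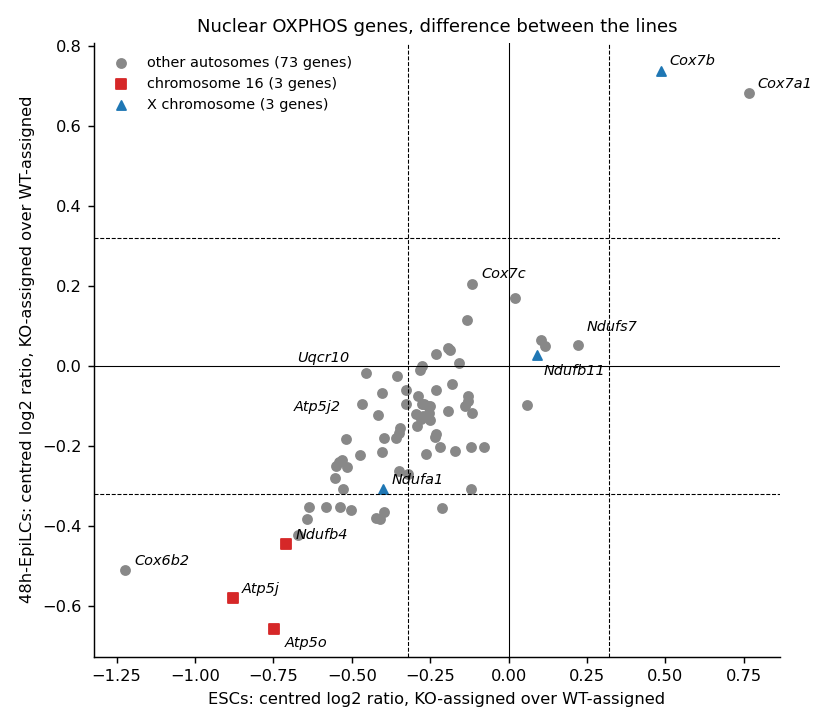
Each point is 1 of the 79 nuclear OXPHOS genes tested in both libraries, with its centred log2 ratio of KO-assigned over WT-assigned cells in ESCs (x axis) and in 48h-EpiLCs (y axis). Dashed lines mark 0.32 either way, and colours mark chromosome 16, the X chromosome and other autosomes. Most points lie below 0 on both axes, the 3 genes of chromosome 16 lie at the lower left with Cox6b2, and Cox7b and Cox7a1 stand alone at the upper right.

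The low values of these 3 members were shared by other genes of their chromosome. Apart from the members, 309 genes of chromosome 16 were tested in ESCs and 314 in 48h-EpiLCs, and their median line ratios were -0.41 and -0.36, with 84.5% and 87.3% of them below 0. For the 18 other autosomes the medians lay between -0.066 and 0.077 in ESCs and between -0.046 and 0.065 in 48h-EpiLCs. The shift ran along the whole chromosome. Its genes, split by position into 3 stretches with equal numbers of annotated genes, had medians of -0.40, -0.42 and -0.42 in the ESC library and of -0.35, -0.41 and -0.36 in the other. Between the stages chromosome 16 stood at 0.007 in WT-assigned and 0.022 in KO-assigned cells. Per cell, chromosome 16 without the members took a median of 3.28% of UMIs in WT-assigned and 2.33% in KO-assigned ESCs, and 3.25% and 2.34% in 48h-EpiLCs. Of the KO-assigned cells, 99.7% lay under the WT-assigned median in each library.

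All 3 members of chromosome 16 were lower than its median in both libraries. Without them the nuclear members of the other autosomes kept a median of -0.28 in ESCs and -0.13 in 48h-EpiLCs (73 genes), and with the X-linked genes 32 and 11 of 76 were past the fold downward. All genes had 19.5% and 15.6% there, so that the count in 48h-EpiLCs was not above the background. Genes of the pathway outside the membership that lie on chromosome 16 were below 0 in both libraries too, 7 of 7 tested. Among them, Cox17, a copper chaperone for complex IV, was at 370.1, 239.9, 281 and 213 CPM with line ratios of -0.75 (-0.82 to -0.69) and -0.47 (-0.55 to -0.40). Gabpa, the DNA-binding subunit of an ETS-family factor known to act on OXPHOS promoters, was at 75.2, 64.0, 45.5 and 43.1 CPM with -0.36 (-0.50 to -0.21) and -0.15 (-0.33 to 0.030). The part of the chromosome in these values was not tested further.

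**Figure D3:**
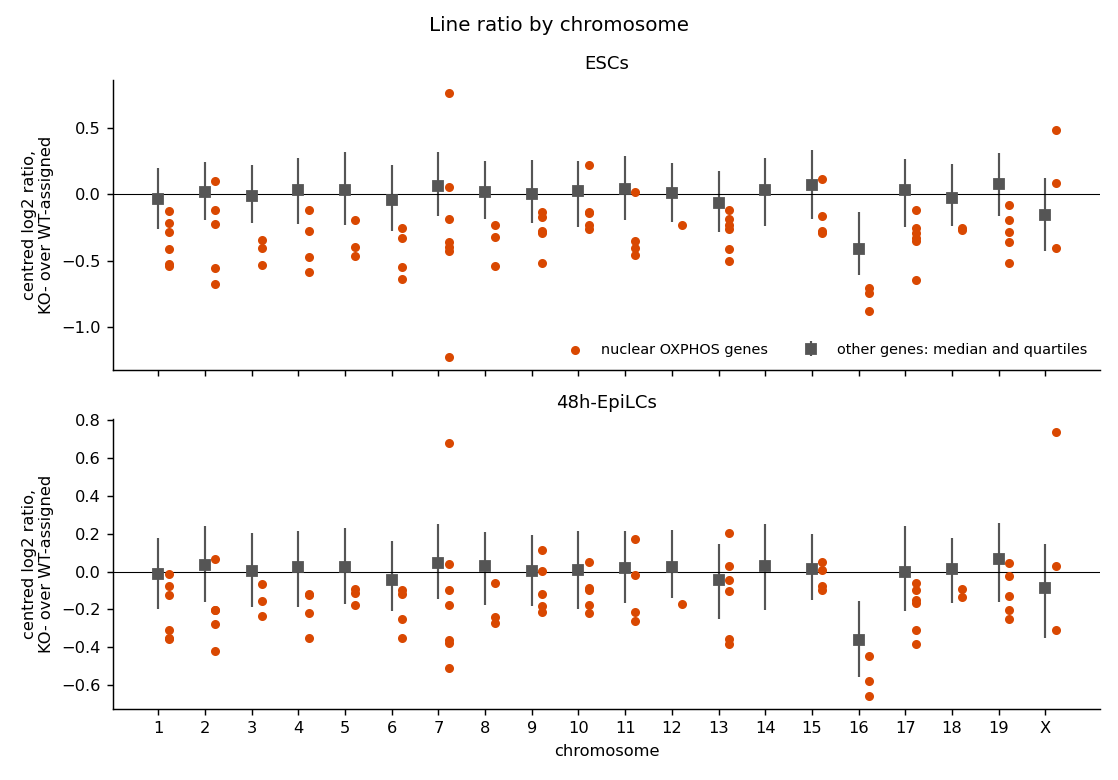
Centred log2 ratio of KO-assigned over WT-assigned cells (y axis) by chromosome (x axis) in ESCs (top) and 48h-EpiLCs (bottom). Grey squares with bars are the median and quartiles of all tested genes other than the members, and orange points are the nuclear OXPHOS genes. The median of chromosome 16 lies at -0.41 and -0.36 while the other autosomes stay between -0.066 and 0.077, and the 3 members on chromosome 16 lie between -0.88 and -0.71 in ESCs and between -0.66 and -0.44 in 48h-EpiLCs.

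Of the X-linked members, Cox7b went against its chromosome. Cox7b, a small subunit of complex IV (chrX:106015700-106022450, plus strand), was at 534, 815, 460 and 809 CPM. Both KO-assigned classes lay above both WT-assigned classes, with line ratios of 0.49 (0.44 to 0.54) and 0.74 (0.69 to 0.80). Other X-linked genes had medians of -0.15 (297 genes) and -0.087 (313 genes). Ndufa1, an accessory subunit of complex I, was at 76.0, 62.6, 73.2 and 62.1 CPM, with ratios of -0.40 (-0.55 to -0.26) and -0.31 (-0.45 to -0.17). Ndufb11, another accessory subunit, was at 116, 134, 143 and 154 CPM, with 0.089 (-0.022 to 0.21) and 0.029 (-0.070 to 0.13), both intervals holding 0. The WT-assigned and KO-assigned classes differ in Y-linked RNA by the rule that defined them. Of the kept cells with tdTomato, 435 ESCs and 368 48h-EpiLCs had no Y-linked UMI, and 82 and 84 had at least 1. A difference in sex chromosomes between the lines was not tested and cannot be told apart from origin and genotype.

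The other nuclear member past the fold upward in both libraries was Cox7a1 (chr7:30184144-30186078, plus strand), the heart and skeletal muscle isoform of subunit VIIa. It was at 16.9, 32.2, 9.0 and 15.9 CPM, lower in 48h-EpiLCs than in ESCs in each line. Its line ratios were 0.77 (0.52 to 1.11) and 0.68 (0.36 to 1.16). Within the set of Cox7a1, Cox7a2 and Cox7a2l, Cox7a1 took 2.28%, 4.72%, 1.17% and 2.02% of UMIs, Cox7a2 65.9%, 64.5%, 59.6% and 61.5% and Cox7a2l, which is known for joining complexes III and IV, 31.8%, 30.8%, 39.2% and 36.5%. Next in order, and short of the fold, were Ndufs7, an iron-sulphur core subunit of complex I, in ESCs (0.22, interval 0.13 to 0.32), and Cox7c of complex IV (0.21, interval 0.17 to 0.24) and Uqcrq of complex III (0.17, interval 0.11 to 0.23) in 48h-EpiLCs. Ndufs7 was at 155, 197, 234 and 255 CPM, Cox7c at 1204, 1211, 1009 and 1225 CPM and Uqcrq at 443, 489.9, 418 and 496 CPM.

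The subunits listed as core mostly lay below 0 between the lines, apart from Ndufs7 above. For complex IV the list holds the nuclear Cox4i1, Cox5a and Cox5b, while its catalytic subunit mt-Co1 is mitochondrial. Past the fold downward were Ndufv1, Ndufv2, Sdhb and Cox5b in ESCs and Sdhc and Cox5b in 48h-EpiLCs. Of all genes tested, 19.5% and 15.6% were past it downward, so that these few are not read as a trait of core subunits. Of the flavin and iron-sulphur subunits of complex I, Ndufv1, which holds the flavin and accepts electrons from NADH, was at 97.5, 74.1, 99.0 and 87.4 CPM and had line ratios of -0.52 (-0.65 to -0.39) and -0.25 (-0.38 to -0.13). Ndufv2 had -0.35 (-0.46 to -0.24) and -0.17 (-0.26 to -0.072). Ndufs1, Ndufs3 and Ndufs8 lay between -0.22 and -0.079 in ESCs and between -0.20 and -0.074 in 48h-EpiLCs, none past the fold. Ndufv1 was thus the lowest of these 5 in each library. In complex II, the flavoprotein Sdha had -0.26 (-0.39 to -0.13) and -0.10 (-0.22 to 0.025), the iron-sulphur subunit Sdhb -0.47 (-0.62 to -0.34) and -0.22 (-0.34 to -0.10), and the membrane anchors Sdhc -0.21 (-0.37 to -0.056) and -0.36 (-0.50 to -0.21) and Sdhd -0.17 (-0.30 to -0.043) and -0.21 (-0.31 to -0.11). All 4 lay below 0 in both libraries. In complex III, Uqcrc1 had -0.13 (-0.21 to -0.052) and 0.12 (0.040 to 0.20), Uqcrc2 0.058 (-0.055 to 0.18) and -0.097 (-0.19 to 0.002), and the Rieske iron-sulphur protein Uqcrfs1 -0.23 (-0.33 to -0.13) and 0.031 (-0.056 to 0.12), with no common sign. In complex IV, Cox4i1 had -0.23 and -0.058 and Cox5a -0.29 and -0.12, while Cox5b was past the fold in both at -0.54 and -0.35. The catalytic alpha and beta subunits of the ATP synthase, Atp5a1 and Atp5b, had -0.27 and -0.23 in the ESC library, then -0.094 and -0.18 after differentiation, with intervals below 0 and short of the fold.

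To show the regulatory sequence of members named above, 5 promoters are printed, from 250 bases before to 50 after the start of transcription, from RefSeq on GRCm38.p6 and on the strand of the gene. Capitals mark a match on either strand to 1 of 3 short motifs of factors known to act on OXPHOS genes: GCATGCGC for NRF1, CCGGAAGT for ETS-family factors such as Gabpa, and AAGATGGCG for YY1. Atp5j is shown as a low gene of KO-assigned cells, at the more downstream of 2 listed starts (the other holds no match), and Atp5g2 and Ndufs7 as genes high in 48h-EpiLCs. Cox6b2 and Cox7b, at opposite ends of the line ratios, hold no match.
Atp5j (chr16:84834927-84835226, minus strand): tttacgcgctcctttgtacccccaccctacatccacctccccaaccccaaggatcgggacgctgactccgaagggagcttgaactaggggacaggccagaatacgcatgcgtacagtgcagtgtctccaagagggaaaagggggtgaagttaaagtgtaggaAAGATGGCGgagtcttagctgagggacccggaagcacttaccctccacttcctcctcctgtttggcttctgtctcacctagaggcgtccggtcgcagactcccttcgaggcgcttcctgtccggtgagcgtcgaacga
Atp5g2 (chr15:102670998-102671297, minus strand): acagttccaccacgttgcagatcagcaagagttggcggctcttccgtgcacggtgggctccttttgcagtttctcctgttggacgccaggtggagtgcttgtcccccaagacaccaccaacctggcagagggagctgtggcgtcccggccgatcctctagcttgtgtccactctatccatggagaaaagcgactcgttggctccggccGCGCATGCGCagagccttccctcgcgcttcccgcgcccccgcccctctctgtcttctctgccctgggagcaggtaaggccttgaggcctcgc
Ndufs7 (chr10:80249199-80249498, plus strand): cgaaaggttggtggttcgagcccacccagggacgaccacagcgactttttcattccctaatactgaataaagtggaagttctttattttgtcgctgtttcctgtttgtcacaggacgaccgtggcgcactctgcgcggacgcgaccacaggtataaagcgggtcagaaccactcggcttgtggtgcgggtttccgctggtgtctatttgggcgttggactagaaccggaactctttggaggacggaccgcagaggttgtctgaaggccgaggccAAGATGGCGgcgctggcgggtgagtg
Cox6b2 (chr7:4753045-4753344, minus strand): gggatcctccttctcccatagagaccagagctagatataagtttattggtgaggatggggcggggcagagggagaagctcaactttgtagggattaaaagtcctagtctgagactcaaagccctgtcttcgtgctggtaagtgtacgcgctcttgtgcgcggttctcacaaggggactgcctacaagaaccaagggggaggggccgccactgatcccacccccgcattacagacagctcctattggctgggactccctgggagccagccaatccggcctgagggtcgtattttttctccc
Cox7b (chrX:106015450-106015749, plus strand): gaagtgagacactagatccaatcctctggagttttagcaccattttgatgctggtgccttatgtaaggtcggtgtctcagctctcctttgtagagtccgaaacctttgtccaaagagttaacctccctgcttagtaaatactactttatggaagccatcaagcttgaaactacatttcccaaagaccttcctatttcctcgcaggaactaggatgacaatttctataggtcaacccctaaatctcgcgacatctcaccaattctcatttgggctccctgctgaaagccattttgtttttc
In Atp5g2 the NRF1 letters were found on both strands of 1 overlapping stretch.

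Of the 84 nuclear members 69 were matched to a RefSeq promoter. The NRF1 letters occurred in 10 of them (14.5%), against 3.05% of 27025 genes with a listed promoter and 7.15% of 7473 such genes that were tested in ESCs. The YY1 letters occurred in 7 (10.1%, against 1.64% and 4.43%). The ETS letters occurred in 5 (7.25%, against 4.31% and 10.9%). Any of the 3 was held by 21 members (30.4%, against 8.47% and 20.9%). The other 48 hold none of these letters in this window.

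Between the stages, nuclear OXPHOS genes were on balance level in WT-assigned cells and higher in KO-assigned 48h-EpiLCs. In WT-assigned cells 12 of 79 members were past the fold upward, against 24.7% of 9242 genes, and 8 downward, against 24.3%, with a median of -0.005. In KO-assigned cells 16 were past it upward, against 21.6% of 9478 genes, and 2 downward, against 22%, with 62 of 79 above 0 and a median of 0.19. The 4 classes enter both the stage and the line ratios, so that a rise between the stages in KO-assigned cells alone and a line ratio nearer 0 in 48h-EpiLCs are the same values read in another order. Above 0 in both lines were 39 of 79 members (49.4%, against 39.4% of all genes).

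The nuclear members past the fold upward in both lines were 8 (10.1%, against 15.2% of 8988 genes), Ndufs3, Ndufc2, Ndufab1, Sdhd, Ndufs7, Atp5g2, Atp5o and Cox7a2l. Sdhd, a membrane anchor of succinate dehydrogenase, was at 93.8, 90.8, 146 and 132 CPM, with stage ratios of 0.60 (0.46 to 0.76) in WT-assigned and 0.56 (0.51 to 0.62) in KO-assigned cells. Ndufc2, an accessory subunit of complex I, was at 135, 109, 204 and 165 CPM, with 0.57 (0.44 to 0.70) and 0.61 (0.57 to 0.67). Ndufs7 had 0.56 (0.45 to 0.69) and 0.40 (0.36 to 0.44). In these 3 genes both 48h-EpiLC classes lay above both ESC classes. The same held for Ndufab1, the mitochondrial acyl carrier protein, which also sits in complex I. It was at 279.5, 237, 388 and 360.4 CPM, with 0.44 (0.35 to 0.53) and 0.62 (0.59 to 0.66).

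Atp5g1, Atp5g2 and Atp5g3 encode the same mature c subunit of the ATP synthase ring with different import signals, and their mix differed between the stages. Atp5g2 was at 615, 549, 854 and 853 CPM, with stage ratios of 0.45 (0.39 to 0.51) and 0.66 (0.63 to 0.68). Atp5g1 was at 964, 795, 805 and 729 CPM, with -0.29 (-0.34 to -0.23) and -0.10 (-0.12 to -0.083), below 0 in both lines. Of the UMIs of the 3 genes Atp5g1 took 51.9%, 49.0%, 39.9% and 38.2%, Atp5g2 33.1%, 33.8%, 42.4% and 44.7% and Atp5g3 15.0%, 17.2%, 17.7% and 17.1%. Atp5g1 led in both ESC classes and Atp5g2 in both 48h-EpiLC classes.

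Among nuclear members of at least 20 CPM, the largest falls in WT-assigned cells were those of small membrane subunits. Atp5j2 was at 509.5, 402, 369.8 and 365 CPM with stage ratios of -0.49 (-0.57 to -0.41) and -0.12 (-0.15 to -0.091). Uqcr10 was at 451, 359, 330.4 and 344 CPM with -0.48 (-0.56 to -0.40) and -0.042 (-0.072 to -0.012). Atp5l, the g subunit of ATP synthase, was at 589, 448, 436 and 404 CPM with -0.46 (-0.53 to -0.39) and -0.13 (-0.15 to -0.099). In each of the 3 the WT-assigned ESCs were high and the other 3 classes lay close together. In KO-assigned cells the lowest stage ratio of a nuclear member was that of Cox7a1, at -0.95 (-1.12 to -0.88), and it was -0.87 (-1.43 to -0.45) in WT-assigned cells. The complex I accessory subunits Ndufv3 (-0.38, interval -0.44 to -0.34) and Ndufa3 (-0.31, interval -0.38 to -0.25, short of the fold) came next among the nuclear members. Ndufv3 was at 153, 153, 136 and 116 CPM and Ndufa3 at 104, 86.2, 83.9 and 68.5 CPM. The largest rise of a nuclear member in KO-assigned cells was that of Cox6b2, at 0.68 (0.60 to 0.80), against -0.030 (-0.25 to 0.19) in WT-assigned cells.

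**Figure D4:**
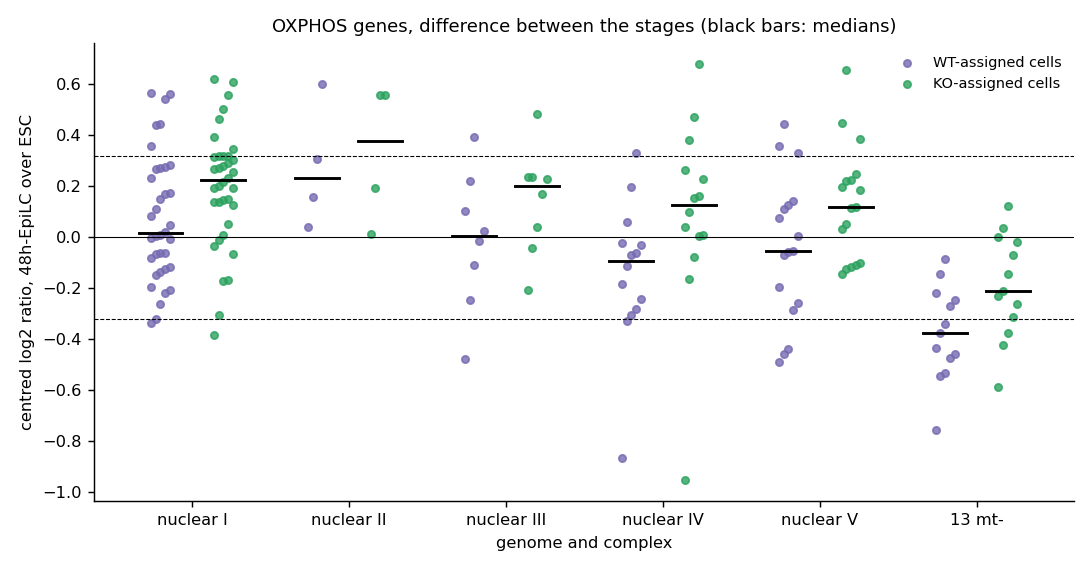
Centred log2 ratio of 48h-EpiLCs over ESCs (y axis) of each tested OXPHOS gene, by genome and complex (x axis), in WT-assigned (purple) and KO-assigned (green) cells. Black bars are medians and dashed lines mark 0.32 either way. The nuclear medians are higher in KO-assigned than in WT-assigned cells in all 5 complexes, and the 13 mitochondrial mRNAs lie mostly below 0 in both.

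The 5 isoforms under the level filter made up little of their sets. Cox4i2 took 0.338%, 0.441%, 0.241% and 0.117% of the Cox4i1 and Cox4i2 UMIs. Cox7b2 took 0.905%, 0.313%, 1.07% and 0.434% of the Cox7b pair, and was higher in the WT-assigned class of each library, on 30 and 31 UMIs there. Cox8c, a testis isoform, took 0.0616%, 0.128%, 0.167% and 0.282% of the Cox8 set. Cox6a2, the muscle isoform, had 0 of 1328 and 0 of 1302 UMIs of its pair in the WT-assigned classes, which allows a share of up to 0.226% and 0.23%, and 22 of 9108 and 16 of 12101 in the KO-assigned classes. Cox8b had 1 UMI in all 4 classes. None of the 5 reached more than 1.07% of its set in a class.

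The 13 mitochondrial mRNAs are cut from long transcripts of both strands of the mitochondrial genome, and all but mt-Nd6 lie on the plus strand of chromosome M. Summed, their centred ratio of KO-assigned over WT-assigned cells was -0.15 (-0.16 to -0.15) in ESCs and 0.020 (0.013 to 0.027) in 48h-EpiLCs. The stage ratio was -0.40 (-0.41 to -0.39) in WT-assigned and -0.23 (-0.23 to -0.22) in KO-assigned cells. The sum was thus lower in 48h-EpiLCs in each line, while nuclear OXPHOS UMIs had -0.024 (-0.034 to -0.013) and 0.16 (0.15 to 0.16). All 13 lay below 0 between the stages in WT-assigned cells, 8 of them past the fold, where 24.3% of all genes were. In KO-assigned cells 11 of 13 lay below 0 and 3 were past the fold, a count near the 22% of all genes. The limit of 10% mitochondrial UMIs per cell cuts into this sum, and with limits of 5% and 20% the stage ratios were -0.32 and -0.38 in WT-assigned and -0.16 and -0.23 in KO-assigned cells.

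Between the lines the sum hid opposite movements of single mRNAs. mt-Co3, a core subunit of complex IV, was at 6063, 3897, 5117 and 3476 CPM, with line ratios of -0.76 (-0.78 to -0.75) and -0.63 (-0.65 to -0.61). mt-Co1, the catalytic subunit that binds oxygen, was at 7349, 5445, 5397 and 4316 CPM, with -0.56 (-0.57 to -0.54) and -0.40 (-0.41 to -0.38). Both were past the fold downward in each library. mt-Cytb, cytochrome b of complex III, was at 3989, 4994, 3132 and 4917 CPM, with 0.20 (0.18 to 0.22) and 0.58 (0.56 to 0.60). mt-Nd1 of complex I was at 4944, 6546, 2983 and 4291 CPM, with 0.28 (0.26 to 0.30) and 0.45 (0.43 to 0.47). Both lay above 0 in each library, and past the fold in 48h-EpiLCs.

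As a share of the 13 together, which does not depend on nuclear RNA, mt-Co3 took 15.5%, 10.1%, 16.9% and 10.7% in the 4 classes, and its log2 ratio of shares between the lines was -0.61 (-0.63 to -0.59) in ESCs and -0.65 (-0.67 to -0.63) in 48h-EpiLCs. mt-Co1 took 18.8%, 14.2%, 17.8% and 13.3%, with -0.41 (-0.42 to -0.39) and -0.42 (-0.43 to -0.40). mt-Nd1 took 12.6%, 17.0%, 9.83% and 13.2%, with 0.43 (0.42 to 0.45) and 0.43 (0.41 to 0.45). For mt-Co1, mt-Co3 and mt-Nd1 the 2 lines did not overlap across stages, with their intervals apart. The same held for mt-Cytb, mt-Nd2, mt-Nd3, mt-Co2 and mt-Nd5. For mt-Co2 it held only just, with 12.26% to 12.52% in WT-assigned and 12.15% to 12.25% in KO-assigned ESCs. These intervals are narrow because they cover counting error only, and how many other genes part the lines in this way was not counted. mt-Cytb took 10.2%, 12.98%, 10.3% and 15.2%, with 0.35 (0.33 to 0.37) and 0.56 (0.54 to 0.58). mt-Nd2 took 5.18%, 6.7%, 5.04% and 5.84% and mt-Nd3 1.09%, 1.44%, 0.99% and 1.44%, both higher in KO-assigned cells of each library. mt-Co2, the third complex IV mRNA, took 12.4%, 12.2%, 12.9% and 11%, with line ratios of -0.022 (-0.040 to -0.005) and -0.23 (-0.25 to -0.21).

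The remaining mRNAs differed less or rested on fewer UMIs. mt-Atp6, a subunit of the proton channel of complex V, took 16.8%, 18.4%, 19.0% and 22.1%, a share that was higher in KO-assigned cells and in 48h-EpiLCs. Its level did not follow this throughout, at 6593, 7087, 5770 and 7156 CPM. The centred line ratios were -0.021 (-0.036 to -0.006) in ESCs and 0.24 (0.22 to 0.25) in 48h-EpiLCs. The centred stage ratios were -0.22 (-0.24 to -0.20) in WT-assigned and 0.035 (0.029 to 0.042) in KO-assigned cells. mt-Atp8, which overlaps mt-Atp6 on the same transcript (chrM:7766-7969 and chrM:7927-8607, so that their UMIs cannot be fully told apart), took 0.263%, 0.264%, 0.291% and 0.336%. mt-Nd4 took 5.74%, 5.41%, 5.5% and 5.47%, close in all classes, and mt-Nd4l, which overlaps it (chrM:9877-10173 and chrM:10167-11544), 0.508%, 0.481%, 0.605% and 0.555%. mt-Nd5 took 0.963%, 0.743%, 0.868% and 0.723%, lower in KO-assigned cells of each library. mt-Nd6, the mRNA of the minus strand, took 0.0539%, 0.0596%, 0.0667% and 0.0663%, with line intervals that hold 0. Between the stages the share of mt-Nd1 was lower by the same amount in both lines, -0.36 (-0.39 to -0.33) and -0.36 (-0.37 to -0.35), and the share of mt-Atp6 was higher, 0.18 (0.16 to 0.20) and 0.26 (0.26 to 0.27).

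**Figure D5:**
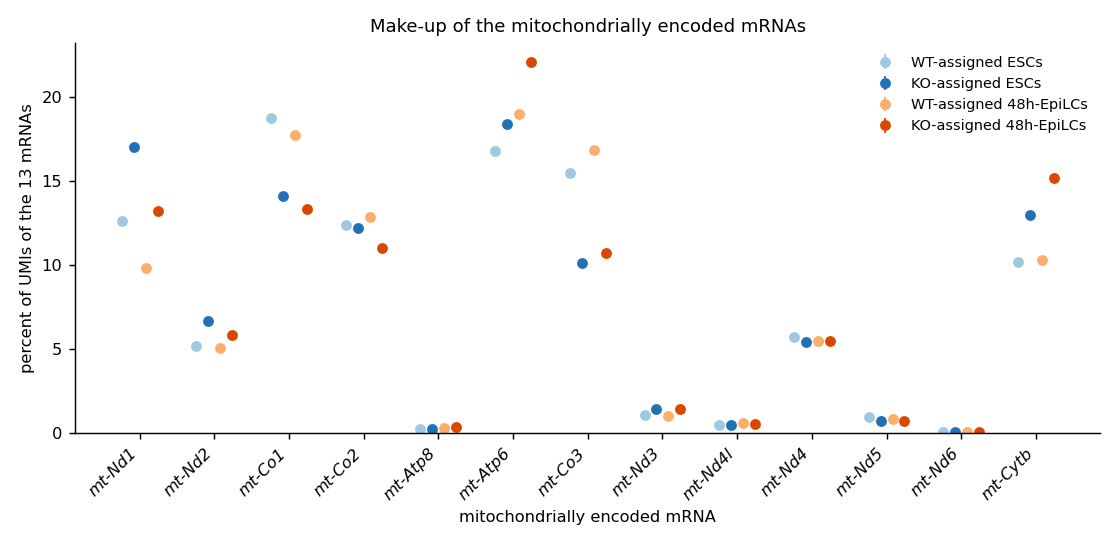
Share of each of the 13 mitochondrially encoded mRNAs (x axis, in the order of the mitochondrial genome) in their summed UMIs (y axis, percent, from 0) for the 4 classes of line and stage, with 95% binomial intervals that are mostly smaller than the points. mt-Co1 and mt-Co3 are lower and mt-Nd1, mt-Nd2 and mt-Cytb higher in the KO-assigned class of each stage.

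Over single cells the line gap was seen in the nuclear share and the stage gap in the mitochondrial share. The nuclear share had medians of 2.46%, 2.13%, 2.47% and 2.36% of UMIs over the cells of the 4 classes, and the mitochondrial share 3.87%, 3.82%, 2.94% and 3.17%. Of the KO-assigned cells 90% in the ESC library and 68.8% in the 48h-EpiLC library lay under the WT-assigned median of the nuclear share. Thinning each cell to 5000 UMIs gave medians of 2.46%, 2.14%, 2.44% and 2.36% for the nuclear share and left out 1, 23, 1 and 9 shallower cells. The nuclear share varied over cells with an SD of 0.26, 0.25, 0.23 and 0.23 percentage points, where counting alone gives 0.14, 0.13, 0.13 and 0.12. The mitochondrial share varied with an SD of 1.06, 1.14, 0.90 and 0.91 percentage points, where counting alone gives 0.17, 0.17, 0.14 and 0.14.

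Spearman's rho between the nuclear and the mitochondrial share was -0.045, -0.11, -0.11 and -0.071 over the 435, 2978, 368 and 2977 cells. Between the nuclear share and that of 92 genes with symbols of cytoplasmic ribosomal proteins, which are likewise abundant short mRNAs (10 of the 92 are Rps6k kinase genes, with at most 0.127% of the list's UMIs), it was 0.31, 0.43, 0.41 and 0.47. The cells of a class share a library, and both shares have the same total as divisor, so that these are descriptions. Ribosomal protein genes took 20.6%, 19.2%, 22.3% and 20.4% of UMIs, with line ratios of their sum of -0.22 (-0.22 to -0.22) and -0.21 (-0.21 to -0.20). Nuclear OXPHOS genes had -0.30 (-0.31 to -0.29) and -0.12 (-0.13 to -0.11). Both groups were lower in KO-assigned cells, OXPHOS genes more so in ESCs and less so in 48h-EpiLCs, and a common part of the 2 was not tested. When each class was split by depth into 4 bins of equal cell number, in the shallowest and the deepest bin the nuclear share was 2.46% and 2.45% in WT-assigned ESCs, 2.13% and 2.23% in KO-assigned ESCs, 2.49% and 2.44% in WT-assigned 48h-EpiLCs and 2.32% and 2.43% in KO-assigned 48h-EpiLCs. The line gap in ESCs was thus present in both bins, and that in 48h-EpiLCs was small in the deepest one. The bins were made within each class, so that their depths differ between the lines. In the deepest bin the median was 19356 UMIs in WT-assigned and 21871 in KO-assigned ESCs. In 48h-EpiLCs it was 23237.5 and 29720 UMIs.

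Lists of genes that build or feed the chain had medians near 0 between the lines, apart from the electron carriers in ESCs. Past the fold between the lines were 19.8% of all genes upward and 19.5% downward in ESCs, and 16.1% and 15.6% in 48h-EpiLCs. The counts of the lists, here and below, are read beside these shares. Of 43 tested assembly factors 5 were past the fold upward and 5 downward in ESCs, and 6 and 4 in 48h-EpiLCs, with medians of -0.071 and 0.053. Mitochondrial ribosomal protein genes (78 tested) had 5 upward and 11 downward in ESCs, 9 and 5 in 48h-EpiLCs, and medians of -0.061 and 0.031. Factors of mitochondrial gene expression (23 tested) had 4 upward and 2 downward in ESCs, 4 and 1 in 48h-EpiLCs, and medians of 0.060 and 0.070. Genes of the TCA cycle (18 tested) had 2 upward and 4 downward in ESCs, 0 and 2 in 48h-EpiLCs, and medians of -0.077 and 0.002. The medians of these 4 lists stood nearer 0 than those of the nuclear OXPHOS members in each library.

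Among the electron carriers, 14 of 16 were tested between the lines, with 2 upward and 4 downward in ESCs and 0 and 1 in 48h-EpiLCs, and with line medians of -0.19 and -0.013. Coq2, an enzyme of ubiquinone synthesis, was the lowest in both, at 11.9, 5.1, 22.0 and 9.06 CPM, with line ratios of -1.20 (-1.73 to -0.94) and -1.27 (-1.63 to -1.07). Cyc1, cytochrome c1 of complex III, was at 289, 295, 356 and 375 CPM, and Cycs, cytochrome c, at 162, 155, 211 and 198 CPM. Between the stages 5 carriers were past the fold upward and 1 downward in WT-assigned cells, with a median of 0.25. In KO-assigned cells 8 and 1 of 15 were, with a median of 0.35. Of all genes tested, 24.7% were past it upward and 24.3% downward in WT-assigned cells, and 21.6% and 22% in KO-assigned cells. Assembly factors had 10 upward and 6 downward in WT-assigned cells and 13 and 2 in KO-assigned cells, mitochondrial ribosomal protein genes 8 and 6, and 12 and 2, factors of mitochondrial gene expression 6 and 6, and 4 and 6, and TCA cycle genes 4 and 2 in each line.

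Of 12 regulators, 11 were tested. Lin28a and Lin28b, RNA-binding proteins known to bind mRNAs of metabolic genes, were lower in KO-assigned cells, with Lin28a at 108, 87.8, 145 and 110.1 CPM and Lin28b at 11.5, 7.16, 24.9 and 16.1 CPM. Their line ratios were -0.43 and -0.47 for Lin28a and -0.74 and -0.68 for Lin28b, and both were higher in 48h-EpiLCs than in ESCs in each line. Esrrb, a naïve pluripotency factor known to act on OXPHOS genes, was at 48.7, 56.6, 3.54 and 11.3 CPM, with a line ratio of 1.37 (1.00 to 2.29) in 48h-EpiLCs. Esrra was at 10.2, 15.5, 16.4 and 19.2 CPM and Nrf1 at 63.2, 56.6, 54.5 and 57.6 CPM. Ppargc1a had 0, 0.0453, 0 and 0 CPM and was not tested. In all, 2 regulators were past the fold upward and 3 downward between the lines in ESCs, and 1 and 2 in 48h-EpiLCs. Between the stages these were 4 and 3 in WT-assigned and 2 and 4 in KO-assigned cells. The shares of all genes past the fold are those given with the lists above.

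The counts of some members can hold reads of other annotated genes with a near-identical stretch at the 3′ end. The last 300 bases of the transcripts of 22 of the 84 nuclear members matched another annotated gene over at least 90 bases at 98% identity or more, among them Atp5l (8 other genes), Atp5g1, Atp5g2, Cox7c, Ndufab1, Ndufs3, Cox5b, Ndufb11 and Atp5o. How the counting treated such reads is not given in the sources used here, and the values of these genes are uncertain to that extent. The match of Atp5o is another entry under the same symbol. Whether a matched gene lies at the same place in the genome was not checked. Cox6b2, Cox7a1, Cox7b, Atp5j, Ndufb4 and Sdhd had no such match.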

How the data were processed

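What was measured: 10x Genomics 3′ single-cell RNA libraries of pooled WT and Cnot8 KO mouse cells, 1 of serum/LIF ESCs and 1 of 48h-EpiLCs. The deposited values are raw UMI counts per gene and cell; per the processing notes and methods, the authors counted with Cell Ranger 3.0.2 on mm10 with the tdTomato coding sequence added, and used Seurat 4 downstream, whose filtered objects are not part of these counts. Which reads the counting discarded as ambiguous is not given in the sources used here.

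The members and the gene lists were chosen with earlier results of these data known. Cells with at least 1000 genes and at most 10% mitochondrial UMIs were assigned to a line by tdTomato and Y-linked UMIs, since the labels point to tdTomato. Of the 11054 and 9400 kept cells, 7641 and 6055 could not be assigned and entered no comparison. No doublet caller was run, and an alternative left out cells over 2 times the median UMIs of their library. UMIs were summed per class, with 6154790 to 59291903 UMIs a class, and given as CPM. Ratios used a pseudocount of 1 CPM, genes of at least 5 CPM in the mean of the classes compared, and centring on the median of those genes. Intervals are 95% exact binomial (Clopper-Pearson), and cover counting error only. Those of single-gene ratios came from the counts without the pseudocount and were shifted by the same median. For genes at low levels a ratio can thus lie away from the middle of its interval. A 0 was read as up to 3 counts. Cells are not replicates, so that no p-value is given. Calculations used Python 3.11.15 with numpy 2.4.6, pandas 2.3.3, scipy 1.17.1 and matplotlib 3.10.9, and R 4.3.3 with edgeR 4.0.16 for TMM factors alone. The ratio calculation was tested on simulated counts.

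Named were the 3 highest and 3 lowest nuclear members of each comparison and the 3 with the largest stage difference of the line ratio, among genes of at least 20 CPM, then the mitochondrial mRNAs, isoform sets, core subunits, X-linked members, and listed pathway genes. A core subunit is counted in the groups but not reported here by itself. Members on chromosome 16, Cox17, Gabpa, Coq2, Lin28a, Lin28b and Esrrb within the lists were singled out after their values were seen. Alternatives varied the scaling, the filter on low values, the pseudocount, the cell filters, the line rule, the depth, the other cell types, large cells and the fold. Leaving out the members of chromosome 16 was added after seeing the data. Promoters were read from RefSeq (GRCm38.p6), and transcript ends were searched for copies in the reference annotation.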

Additional observations from a re-analysis of the deposited data

Results flagged for a closer look

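Opposite directions under the same contrast, by at least 0.1 on the centred log2 scale each way, were found for 7 gene and contrast pairs among 90 members of at least 20 CPM. With 1 library per stage the difference was not tested in any of them, and none of these values passed the fold of 0.32.

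Between the lines, Uqcrc1, a core protein of complex III, was at -0.13 in ESCs and 0.12 in 48h-EpiLCs. Cox7c, a small subunit of complex IV, was at -0.12 and 0.21. mt-Atp8, the short complex V mRNA that overlaps mt-Atp6, was at -0.15 and 0.22. The size of the negative values in ESCs rests mostly on the centring, and for Cox7c so does the sign. The levels in WT-assigned and KO-assigned ESCs were 232 and 231 CPM for Uqcrc1, 1204 and 1211 CPM for Cox7c, and 103 and 101 CPM for mt-Atp8. Cox7c shares its 3′ end with other annotated genes.

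Between the stages, the complex I accessory subunit Ndufb5 was at -0.21 in WT-assigned and 0.13 in KO-assigned cells. Ndufa11, another accessory subunit of complex I, was at -0.12 and 0.15. Cox7a2, the widely expressed isoform of subunit VIIa, was at -0.12 and 0.16. mt-Atp8 was at -0.25 and 0.12. All 4 had a negative ratio in the WT-assigned and a positive one in the KO-assigned class.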

How the results depend on the processing

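Directions held throughout for the median of the nuclear members in KO-assigned against WT-assigned cells, which ranged from -0.32 to -0.16 in ESCs and from -0.18 to -0.059 in 48h-EpiLCs, and between the stages in KO-assigned cells, from 0.17 to 0.22. In WT-assigned cells the stage median ranged from -0.018 to 0.042 and has no stable sign. Of 80 values of named genes past the fold, each under 14 settings, 1080 kept their side, 40 fell short of the fold and none reversed.

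Between the lines in ESCs the median of the nuclear members was -0.16 without centring, -0.19 with UMIs other than mitochondrial and ribosomal protein ones as divisor, -0.22 with no filter on low values and -0.23 with genes of at least 50 CPM, and in 48h-EpiLCs it was -0.059 without centring. Members past the fold downward then numbered 20 (no centring) and 21 (other divisor) in ESCs and 5 (no centring) in 48h-EpiLCs. Between the stages in WT-assigned cells they numbered 5 without centring, with TMM and with the other divisor, and 4 at 50 CPM. In KO-assigned cells 1 was left at 50 CPM, as was 1 upward between the lines in each library. At a fold of 1.5, 7 members were downward and 1 upward in ESCs between the lines, 1 downward in 48h-EpiLCs, 1 each way between the stages in WT-assigned cells, and 4 upward and 1 downward in KO-assigned cells.

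The sum of the mitochondrial mRNAs is given in the order line in ESCs, line in 48h-EpiLCs, stage in WT-assigned and stage in KO-assigned cells. It was -0.027, 0.094, -0.37 and -0.25 without centring. It was -0.13, 0.046, -0.38 and -0.20 with TMM. With the other divisor it was -0.054, 0.060, -0.35 and -0.24. With no filter it was -0.096, 0.046, -0.39 and -0.24, and at 50 CPM -0.095, 0.030, -0.35 and -0.23. With a limit of 5% mitochondrial UMIs the sum was -0.13 for the line in ESCs, -0.32 for the stage in WT-assigned and -0.16 in KO-assigned cells, and with 20% it was 0.010 for the line in 48h-EpiLCs and -0.38 for the stage in WT-assigned cells. With 1 Y-linked UMI taken as enough for the KO line, the line values were -0.12 and 0.036 and the stage value in KO-assigned cells -0.24. With KO-assigned cells drawn to the depth of WT-assigned cells these were -0.17, 0.036 and -0.20. The line value in 48h-EpiLCs was 0.003 as a mean over cells and -0.001 without cells over 2 times the median UMIs, and the stage value in KO-assigned cells was -0.25 and -0.26, and -0.23 without other cell types. The line value in 48h-EpiLCs thus has no stable sign. For the values of this paragraph, the cause of a change was not tested.

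No paired analysis was possible because each stage has 1 library and the labels carry no replicate numbers. Line, origin of the line and genotype cannot be told apart, nor can stage and library. The assignment of cells rests on tdTomato and Y-linked RNA, and cells without either marker were left out, so that the classes hold the cells in which those markers were seen. The lower values of chromosome 16 in KO-assigned cells touch 3 members; without them, an alternative chosen after seeing the data, the nuclear medians were -0.28, -0.13, -0.000 and 0.19. Depth limits single genes under about 20 CPM in WT-assigned cells, which hold the fewest UMIs.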

Other observations

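Cells of neither class, which had passed the filters without meeting the rule on tdTomato and Y-linked RNA, numbered 7641 in the ESC library and 6055 in the 48h-EpiLC library. Their median nuclear OXPHOS share was 2.34% and 2.44% of UMIs, between the medians of the WT-assigned and KO-assigned cells of the same library. Their median share of chromosome 16 without the members was 2.75% and 3.03%, likewise between the classes. Their median mitochondrial share was 4.02% and 3.12%, the former above both classes and the latter between them. In the ESC library 2238 and in the 48h-EpiLC library 1724 of them had 1 Y-linked UMI and no tdTomato UMI, and 5321 and 4247 had neither.

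Atpif1, the inhibitor of ATP synthase, whose symbol keeps it out of the membership, was at 493, 473, 527 and 566 CPM in WT-assigned ESCs, KO-assigned ESCs, WT-assigned 48h-EpiLCs and KO-assigned 48h-EpiLCs.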
